A study of Mus musculus with 6 samples.

Results

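The 10 genes described here carry arachidonic acid from the membrane to prostaglandins and leukotrienes. They are Pla2g4a, Ptgs1, Ptgs2, Ptges, Ptges2, Ptges3, Ptgis, Ptger4, Alox5 and Alox5ap, chosen by name for their place in the pathway and matched on the gene symbol of the deposited table. All 10 of 10 were listed among its 14408 genes, and 9 averaged 1 FPKM or more (fragments per kilobase of gene, scaled to library size), the level required for a test. Ptges, at a mean of 0.649 FPKM, lay under it and is given by its values alone. The libraries came from male mice of the C57BL/6J strain, which entered the study at 8 weeks of age, and were labelled as heart tissue, with left ventricle in the extraction protocol. Every animal, controls included, had been brought to a state modelling HFpEF (heart failure in which ejection fraction is preserved) by a high-fat diet together with L-NAME, a nitric oxide synthase inhibitor, in the water at 0.5 g/L for 8 to 12 weeks. PBS as vehicle, or L-proline at 300 mg/kg daily, was then injected into the peritoneum for 4 to 8 weeks, and each group had 3 libraries. The study asked how L-proline bears on ferroptosis and PPARγ signalling. No untreated or lean group is included, so each difference below is between L-proline and PBS within the model, and nothing in the labels says that each library was a separate animal. The p-values therefore reflect how far libraries of 1 group differ, and that spread may be technical.

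In this pathway the phospholipase encoded by Pla2g4a frees arachidonic acid from membranes, the cyclooxygenases encoded by Ptgs1 (usually constitutive) and Ptgs2 (usually induced) turn it into prostaglandin H2, and terminal synthases convert that to prostaglandin E2 or prostacyclin. Prostaglandin E2 acts through receptors such as EP4, the product of Ptger4, which raises cyclic AMP, while the lipoxygenase encoded by Alox5, with the substrate-presenting protein encoded by Alox5ap, starts leukotriene synthesis, best known from leukocytes. In heart, prostacyclin and prostaglandin E2 from stromal and vessel cells act on vascular tone and fibroblasts, and Ptgs2 is often read as a marker of ferroptosis.

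Most defining genes of heart muscle were near 0 or unlisted. Of 13 cardiomyocyte markers 7 were listed, the sarcomere and calcium-handling genes Ttn, Ryr2, Myh7, Myl2 and Tnni3 had means of at most 0.0997 FPKM, and 6, Myh6 and Actc1 among them, had no entry in the table. The other listed members were expressed: the transcription factor gene Nkx2-5 at a mean of 3.38 FPKM, with 187 to 231 fragments per library, and Tnnt2, cardiac troponin T, at 32.0 ± 0.777 in PBS and 14.5 ± 1.51 in L-proline (log2 fold change -1.09 ± 0.09, limma, adjusted p = 0.000326). Of 10 fibroblast markers 7 were listed, with means from 6.91 FPKM for Pdgfra to 1525 for Col3a1, while Lum, Tcf21 and Thy1 had no entry. Of 10 smooth muscle and pericyte markers 8 were listed, and these were uneven. Acta2 had a mean of 838 FPKM and Des of 223, but Cspg4 had 4.06, Cnn1 3.09, Rgs5 0.0762 and Myh11 0.0227. Endothelial markers were low: 5 of 10 were listed, with means of at most 0.676 FPKM. The labels do not settle which cells gave this RNA, so the values below are not assigned to whole left ventricle. Library totals, recovered from the FPKM values, ran from 34990473 to 37498030 fragments. The listed genes held 96.1% of the fragments of L-proline 3 and 98.6 to 98.8% of those of the other libraries. One feature of the whole data set touches several of these genes. Libraries differed in how transcripts of low GC content were represented: for the class with the lowest GC content of 5 equal classes of tested genes (31.0 to 43.9%), the median gene was 0.16 above its 6-library mean on the log2 scale in L-proline 1 and 0.30 below it in L-proline 3, while the class with the highest GC content had -0.11 and 0.07. Results on genes of low GC content are therefore also given after a correction for GC content, a step chosen after seeing the data.

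At their PBS levels the 10 genes spanned a wide range per unit length. Ptges3 was highest at 98.8 ± 2.48 FPKM (SD, n = 3, as for every mean below), followed by Ptgs1 at 54.2 ± 2.24, Ptgs2 at 38.5 ± 9.41, Alox5 at 32.7 ± 2.46 and Alox5ap at 31.4 ± 0.744. Below these came Pla2g4a at 21.9 ± 2.74, Ptges2 at 11.2 ± 0.929, Ptgis at 9.28 ± 0.906, Ptger4 at 8.55 ± 1.27 and Ptges at 0.632 ± 0.133. The ranges of neighbours in this order overlapped for Ptgs2 and Alox5, for Alox5 and Alox5ap, and for Ptgis and Ptger4, so those neighbours did not differ beyond their spread. In L-proline, Alox5 no longer overlapped Alox5ap, nor Ptgis Ptger4, while Pla2g4a and Ptges2 now overlapped. Ptges3, Ptgs1 and Ptgs2 were the best counted, with at least 2343 fragments in every library, and Ptges the least, with 71 to 102.

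**Figure D1:**
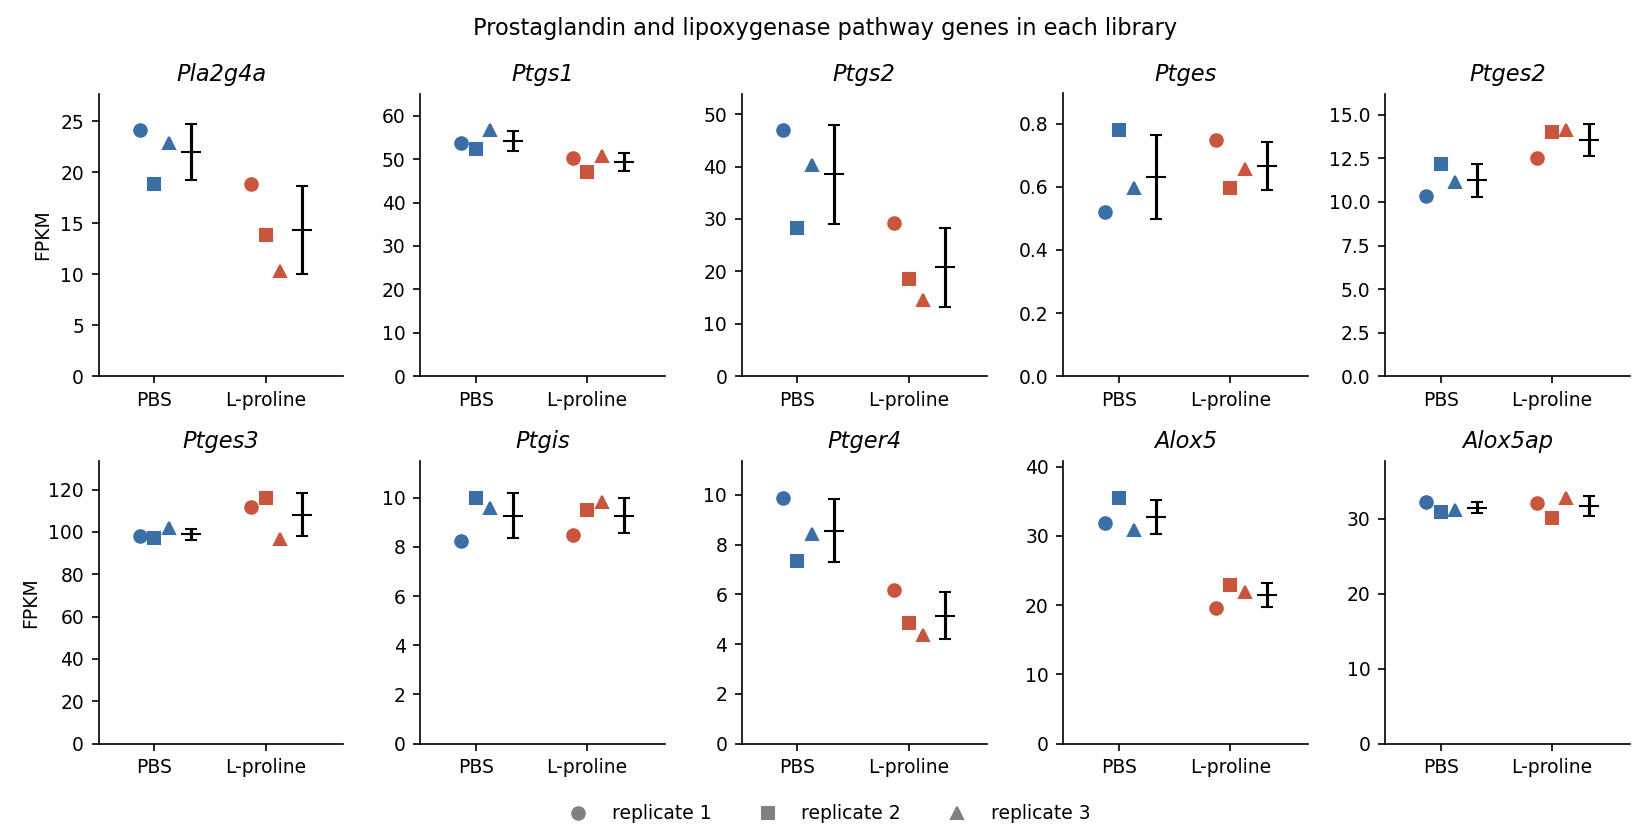
FPKM of each of the 10 pathway genes in the 3 PBS (blue) and 3 L-proline (red) libraries, with symbols for the replicate number and a black mark and bar for the mean and SD (n = 3); every vertical axis starts at 0. Alox5 and Ptger4 separate downward in L-proline, Ptgs2 and Pla2g4a are lower on average with wide spread, and Alox5ap and Ptgis sit at the same level in both groups.

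Against PBS, 3 of the 9 tested genes fell in L-proline and 0 rose: Ptgs2, Ptger4 and Alox5. The test was limma on log2(FPKM + 1), adjusted by Benjamini-Hochberg over all 10500 genes tested, with a threshold of 0.05. Over all tested genes 12.1% fell and 7.5% rose, 19.6% in all, and the median log2 fold change of the 9 genes was -0.13 beside -0.06 over all tested genes. The overall split of 788 higher and 1268 lower became 1079 and 1015 with quantile normalization, 1003 and 966 with median-of-ratios scaling and 1568 and 1563 after GC correction. Values of the L-proline and PBS libraries did not overlap for 4 of the 10 genes (Ptgs1, Ptges2, Ptger4 and Alox5), against 36.2% of all listed genes; all 4 were among the 9 tested, against 40.1% of tested genes, so that share stood near the background. After GC correction 6 of 9 passed, against 30.6% of genes. The groups then did not overlap for 6 of 9, Ptgs2, Pla2g4a and Ptges3 among them, against 46% of genes. The count of 3 changed with single libraries: it was 1 without PBS 1, without PBS 3 or without L-proline 2, and 5 without L-proline 1.

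**Figure D2:**
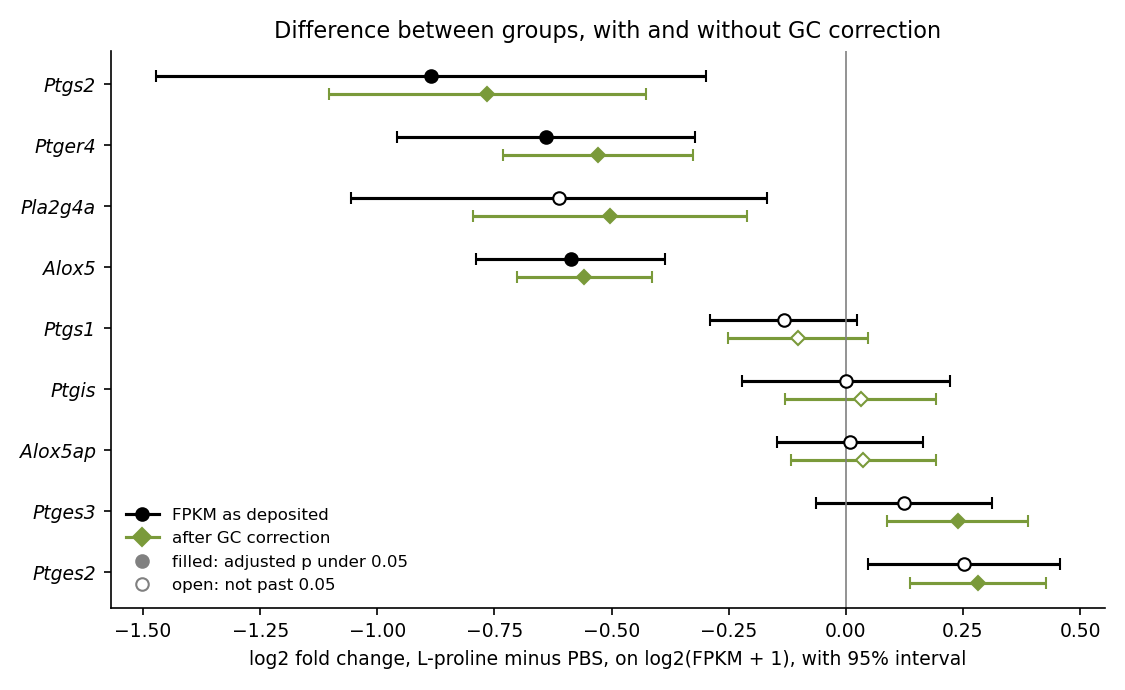
Log2 fold change (L-proline minus PBS, on log2(FPKM + 1)) with its 95% interval for the 9 tested genes, from the FPKM as deposited (black circles) and after GC correction (green diamonds); filled symbols have an adjusted p under 0.05. Ptgs2, Ptger4 and Alox5 lie below 0 under both, and Pla2g4a, Ptges2 and Ptges3 have filled symbols only after the correction.

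Release of arachidonic acid came first in the pathway. Pla2g4a stood at 24.1, 18.9 and 22.9 FPKM in PBS 1, 2 and 3, and at 18.9, 13.9 and 10.3 in L-proline 1, 2 and 3. PBS 2 and L-proline 1 met at the same value, and L-proline 3 was the lowest of the 6. The log2 fold change was -0.61 ± 0.19 (limma, adjusted p = 0.0596), which did not pass. Its 95% interval ran from 0.481-fold to 0.890-fold. Pla2g4a did pass without L-proline 1 (adjusted p = 0.00606) and after GC correction (log2 fold change -0.50 ± 0.13, adjusted p = 0.0191, with no overlap of the groups), and over 18 alternatives its adjusted p ran from 0.00137 to 0.178. In bulk RNA, a lower value can mean fewer cells of a type or less RNA per cell, and these cannot be told apart here.

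The cyclooxygenases differed from each other in how steady they were. Ptgs1 was 53.7, 52.2 and 56.6 FPKM in PBS 1, 2 and 3, and 50.2, 47.0 and 50.8 in L-proline 1, 2 and 3. Every L-proline library was below every PBS library, by a margin of 1.39 FPKM between the nearest ones. The difference was small, -0.13 ± 0.07 as a log2 fold change (adjusted p = 0.204 by limma). The 95% interval of 0.818-fold to 1.02-fold leaves out any decrease as large as that seen for Alox5.

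Ptgs2 was 46.9, 28.3 and 40.3 FPKM in PBS 1, 2 and 3, and 29.2, 18.6 and 14.5 in L-proline 1, 2 and 3. L-proline 1 lay just above PBS 2, so the groups overlapped, and L-proline 3 was again the lowest. The mean FPKM fell by 46.0%, and the log2 fold change on log2(FPKM + 1) was -0.89 ± 0.25 (adjusted p = 0.0452 by limma). This call was narrow: it was lost without PBS 1 (adjusted p = 0.149), PBS 3 (0.141), L-proline 2 (0.124) or L-proline 3 (0.112), with no filter on low values (0.0761), with libraries scaled to equal sums once mitochondrial and the 20 most abundant transcripts were set aside (0.0581) and with a robust variance model (0.0511). Over all 18 alternatives the adjusted p ran from 0.000488 to 0.149, and the log2 fold change from -1.15 to -0.67. Ptgs2 has a transcript of low GC content, 40.02%. After GC correction its SD on the log2 scale went from 0.36 to 0.25 in PBS and from 0.49 to 0.25 in L-proline, the groups no longer overlapped, and the log2 fold change was -0.77 ± 0.15 (adjusted p = 0.00608).

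Because both cyclooxygenases make the same product, their ratio was also compared in each library. Ptgs2 made up 46.6, 35.2 and 41.6% of the summed FPKM of Ptgs1 and Ptgs2 in PBS 1, 2 and 3. The share was 36.8, 28.3 and 22.2% in L-proline 1, 2 and 3. Ptgs1 was thus the more abundant of the pair in all 6 libraries, per unit length, and the share of Ptgs2 in L-proline 1 was above that in PBS 2. The log2 ratio of Ptgs2 to Ptgs1 went from -0.52 ± 0.34 to -1.31 ± 0.51, a difference of -0.79 (exact permutation test, two-sided, p = 0.2, where 3 libraries against 3 cannot give less than 0.1 and so could not pass).

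The terminal synthases did not fall with Ptgs2. Ptges encodes the inducible microsomal prostaglandin E synthase, often induced together with Ptgs2. It was 0.519, 0.779 and 0.598 FPKM in PBS 1, 2 and 3, and 0.747, 0.596 and 0.656 in L-proline 1, 2 and 3. The groups overlapped fully at a low level, under the filter and untested. Ptges2, which encodes a membrane-associated protein named as a prostaglandin E synthase whose part in that synthesis in the animal is disputed, was 10.4, 12.2 and 11.2 FPKM in PBS 1, 2 and 3, and 12.5, 14.0 and 14.1 in L-proline 1, 2 and 3. All L-proline values were above all PBS values, by 0.324 FPKM at the nearest. The log2 fold change was 0.25 ± 0.09 (limma, adjusted p = 0.0835). It passed without L-proline 1 (adjusted p = 0.0432) and after GC correction (0.0118), within a range of 0.00727 to 0.272 over 18 alternatives.

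Ptges3 encodes p23, a co-chaperone of HSP90 also named cytosolic prostaglandin E synthase. Its PBS values were 97.9, 97.0 and 102 FPKM, and its L-proline values 112, 116 and 96.6. L-proline 3 was the lowest of all 6 and the other L-proline libraries the highest. The log2 fold change was 0.12 ± 0.08 (limma, adjusted p = 0.308). Like Ptgs2, Ptges3 has a low GC content (43.2%), and after GC correction the groups separated with a log2 fold change of 0.24 ± 0.07 (adjusted p = 0.0263; 0.00833 to 0.606 over 18 alternatives). A processed copy, Ptges3-ps, was listed separately at a mean of 21.1 FPKM, so the division of fragments between Ptges3 and this copy is uncertain.

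Ptgis encodes prostacyclin synthase. It was 8.26, 9.99 and 9.57 FPKM in PBS 1, 2 and 3, and 8.47, 9.51 and 9.82 in L-proline 1, 2 and 3. The groups lay on top of each other. The log2 fold change was 0.00 ± 0.10 (limma, adjusted p = 0.998), with a 95% interval from 0.857-fold to 1.17-fold, and its sign varied, with 4 of 18 alternatives giving the opposite one. Within prostaglandin H2 use, the log2 ratio of Ptges to Ptgis was -3.89 ± 0.18 in PBS and -3.80 ± 0.26 in L-proline (exact permutation test, two-sided, p = 0.6). Thromboxane synthase (Tbxas1), another enzyme acting on prostaglandin H2, did not exceed 0.00433 FPKM in any library.

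Ptger4, the EP4 receptor gene, was 9.88, 7.35 and 8.43 FPKM in PBS 1, 2 and 3, and 6.19, 4.86 and 4.36 in L-proline 1, 2 and 3. Every L-proline library was below every PBS library, and the gap between L-proline 1 and PBS 2 was 1.16 FPKM. The mean FPKM fell by 39.9%, and the log2 fold change on log2(FPKM + 1) was -0.64 ± 0.14 (adjusted p = 0.0160 by limma). It was -0.73 with 0.1 in place of 1 added to the FPKM. With log2 fold changes of -0.54, -0.65 and -0.61, the call was lost without PBS 1 (adjusted p = 0.0638), PBS 3 (0.0628) or L-proline 2 (0.0550), and over 18 alternatives the adjusted p ran from 0.000644 to 0.0638. With a GC content of 43.6% it belongs to the same GC class as Ptgs2, and after GC correction its log2 fold change was -0.53 ± 0.09 (adjusted p = 0.00332). In the reference annotation, Ptger4 shares 82 exonic bases with Ttc33 and 1015 with the pseudogene Gm15937, both on the opposite strand, and no source used here says that counting used strand, so some fragments could come from either.

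Other prostanoid receptors were mostly low. Ptgfr, which encodes the prostaglandin F2α receptor, was the exception, at 7.76, 6.36 and 8.10 FPKM in PBS 1, 2 and 3, and 13.8, 11.2 and 11.2 in L-proline 1, 2 and 3. All L-proline values exceeded all PBS values. Ptgfr rose by 0.64 ± 0.12 on the log2 scale (adjusted p = 0.00807 by limma) and passed in all 18 alternatives, with an adjusted p between 0.000318 and 0.0292. Its GC content is 40.7%, and after GC correction the log2 fold change was 0.76 ± 0.08. In every PBS library Ptger4 was above Ptgfr, while in every L-proline library Ptgfr was above Ptger4. Ptger1, coupled to calcium signalling, was 1.47 ± 0.487 and 2.02 ± 0.962 FPKM (adjusted p = 0.460). The other receptors for prostaglandin E2 were under the filter, with Ptger2 at 0.452 ± 0.0442 and 0.417 ± 0.0983, and Ptger3 at 0.455 ± 0.102 and 0.398 ± 0.0748. The prostacyclin receptor gene Ptgir, also under the filter and untested, had 141, 134 and 84 fragments in PBS 1, 2 and 3 and 84, 80 and 36 in L-proline 1, 2 and 3.

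The lipoxygenase branch gave the firmest difference among the 10 genes. Alox5 was 31.8, 35.5 and 30.8 FPKM in PBS 1, 2 and 3, and 19.6, 22.9 and 21.9 in L-proline 1, 2 and 3. The groups were 7.94 FPKM apart at their nearest values, more than the range within either group. The mean FPKM fell by 34.5%, and the log2 fold change on log2(FPKM + 1) was -0.59 ± 0.09 (adjusted p = 0.00399 by limma). Alox5 passed in all 18 alternatives with an adjusted p between 0.000465 and 0.0191. Its GC content is 53.6%, and GC correction left the log2 fold change at -0.56 ± 0.06. Alox5ap was 32.3, 30.9 and 31.2 FPKM in PBS 1, 2 and 3, and 32.0, 30.1 and 32.8 in L-proline 1, 2 and 3. These values differed little between libraries and the groups overlapped. The log2 fold change was 0.01 ± 0.07 (limma, adjusted p = 0.936) with a 95% interval from 0.903-fold to 1.12-fold, and 5 of 18 alternatives gave the opposite sign.

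Alox5 and Alox5ap are known mainly from leukocytes, so leukocyte markers were set beside them. Of 14 macrophage and monocyte markers 7 were listed, and their summed level was 19.98 to 22.6 FPKM in PBS and 21.9 to 25.5 in L-proline. Most of that sum was Cd14, at 15.6 ± 1.58 and 16.5 ± 1.22 FPKM, while Csf1r had a mean of 0.167 over the 6 libraries, Mrc1 of 0.0120 and Laptm5 of 0.0800. Cd68, a lysosomal protein gene, rose from 3.17 ± 0.536 to 5.19 ± 0.297 FPKM (limma, adjusted p = 0.0101), opposite in direction to Alox5. Fcgr3, an Fc receptor gene under the filter and untested, went the other way, with 34, 30 and 26 fragments in PBS 1, 2 and 3 and 2, 0 and 11 in L-proline 1, 2 and 3. Neutrophil markers (3 of 8 listed) summed to 0.317 to 1.14 FPKM in PBS and 0.0296 to 0.239 in L-proline. None of them was tested or had more than 10 fragments in any library, so these sums are too thinly counted to compare. The 1 listed lymphocyte marker of 10, Cd79a, had a mean of 0.0419. Of 8 mast cell and basophil markers only Hdc was listed, at a mean of 1.94 FPKM. Ptprc, Adgre1, Itgam, Tyrobp and Kit had no entry in the table, so their level is not known. The means of Alox5 (27.1 FPKM) and Alox5ap (31.5) thus exceeded that of every listed marker of these 4 lists. Among markers that moved with the groups, the mesothelial list (5 of 10 listed) summed to 51.8 to 53.0 FPKM in PBS and 26.7 to 27.9 in L-proline, with both tested members, Msln and Krt19, falling. The cardiomyocyte list (7 of 13 listed) summed to 34.8 to 36.5 FPKM in PBS and 16.8 to 19.96 in L-proline, nearly all of it Tnnt2. The fibroblast list (7 of 10) summed to 3367 to 3466 and 4069 to 4476, but its members did not move together: Col1a1, Col1a2 and Col3a1 rose, Pdgfra fell, and Dcn, Postn and Fn1 did not pass. Of these calls, that of Col1a1 was lost without PBS 1 (adjusted p = 0.0898) or PBS 3 (0.0733), that of Col1a2 without PBS 1 (0.0539), and that of Pdgfra without PBS 1 (0.0940), PBS 3 (0.115) or L-proline 2 (0.0584) and with quantile normalization (0.0756). The part of these markers in the differences of the pathway genes was not tested.

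**Figure D3:**
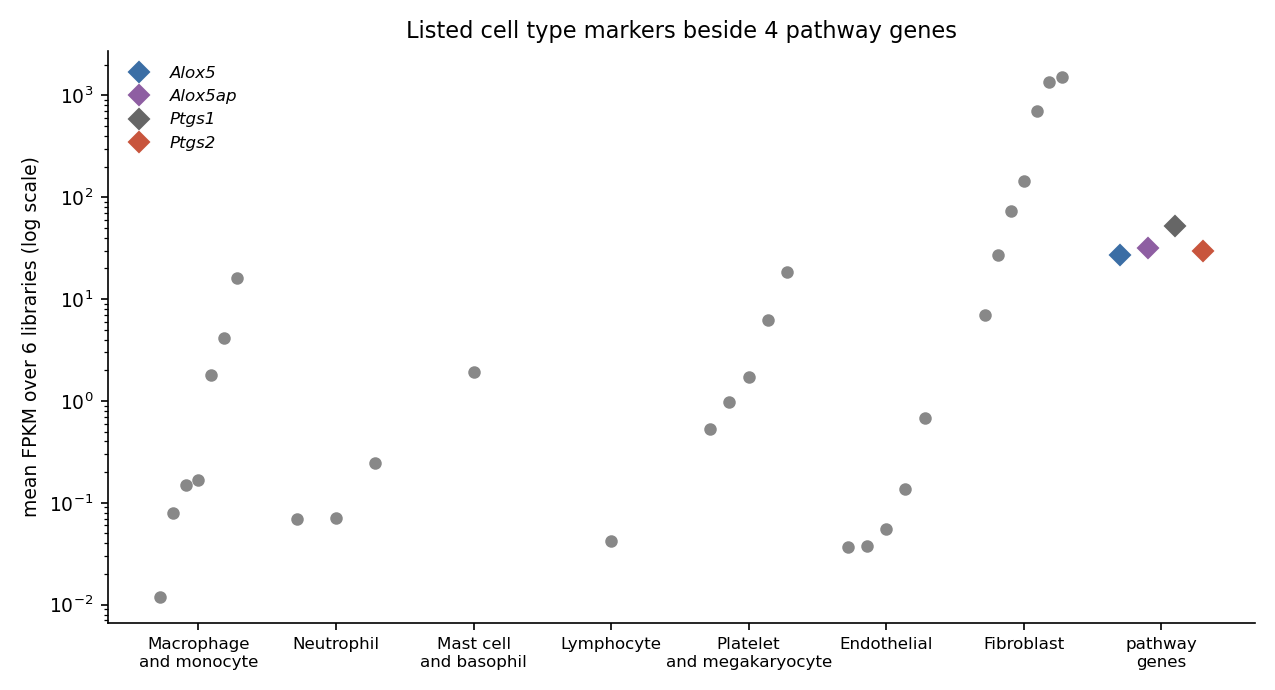
Mean FPKM over the 6 libraries, on a log axis, of each listed marker in 7 cell type lists (grey points, ordered within a list) and of Alox5, Alox5ap, Ptgs1 and Ptgs2 (coloured diamonds). Alox5 and Alox5ap lie above every listed macrophage, neutrophil, mast cell and lymphocyte marker. They lie within the wide range of the fibroblast markers (6.91 to 1525 FPKM), and also within that of the smooth muscle and pericyte markers, not drawn (0.0227 to 838).

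Ptgs2, Pla2g4a and Ptger4 also shared the order of their libraries. Each was highest in PBS 1, then PBS 3, then PBS 2, and within L-proline highest in library 1, then 2, then 3. Their GC contents were 40.02, 44.1 and 43.6%. Ptgs2 and Ptger4 belong to the class of lowest GC content and Pla2g4a to the next class. In L-proline 1, 2 and 3 the lowest class had medians of 0.16, -0.04 and -0.30. Its medians in PBS 1, 2 and 3 were 0.12, -0.06 and 0.12. Ptges3, also of the lowest class, had a different order, PBS 3, 1, 2 and L-proline 2, 1, 3. Whether GC content accounts for the shared order was not tested. Alox5 had another order, with replicate 2 highest in each group. By Pearson correlation of log2(FPKM + 1) over the 6 libraries, the 5 genes most like Ptgs2 were Ppp6r3 (r = 0.999), Ift81 (0.998), Ttc21b (0.998), Zfp652 (0.998) and Sestd1 (0.998), with GC contents of at most 46.3%. Such likeness was common: 521 of 10326 genes compared (5.05%) had r of at least 0.95. These correlations include the difference between groups and the shared library order, and are given as a description.

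**Figure D4:**
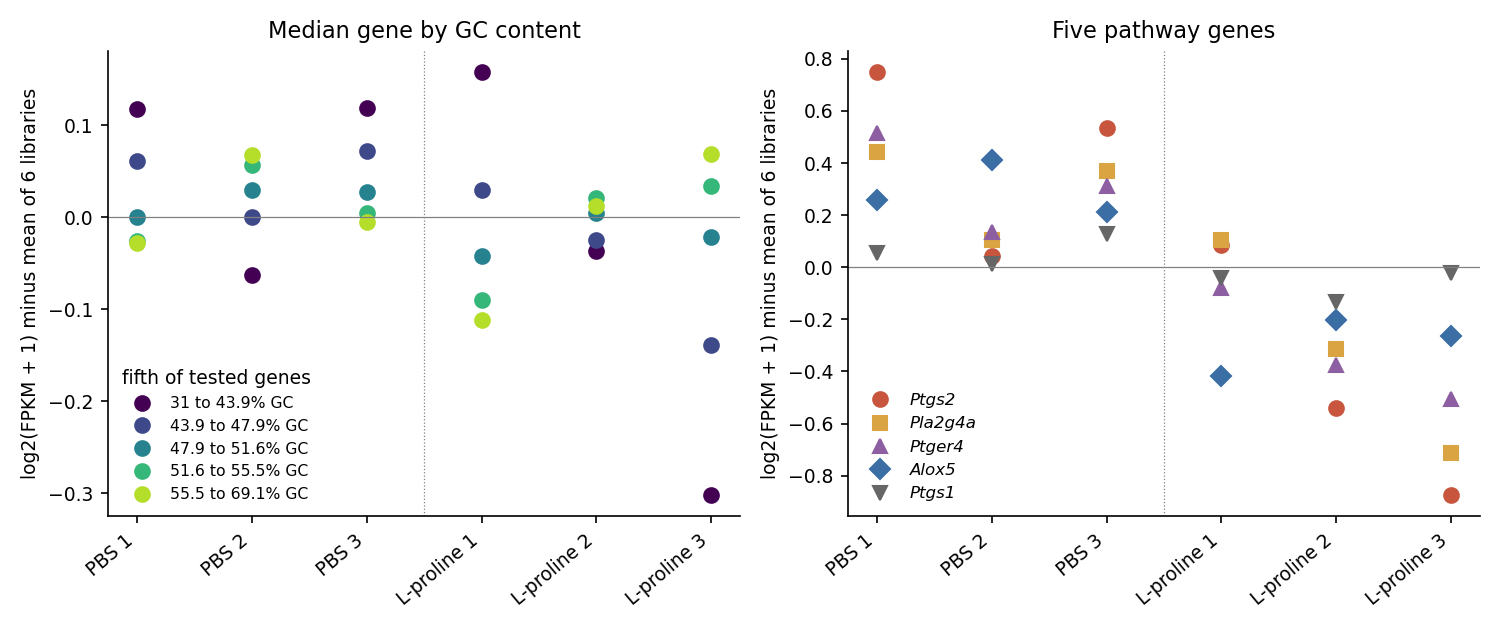
Left, the median over genes of log2(FPKM + 1) minus the gene's mean over the 6 libraries, for 5 equal classes of transcript GC content, in each library; right, the same deviation for 5 pathway genes. Low-GC genes are low in L-proline 3 and high in L-proline 1, and Ptgs2, Pla2g4a and Ptger4 have their lowest value in L-proline 3, while Alox5 has its lowest in L-proline 1.

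The promoters of the 3 genes that fell are shown because these genes changed in the same direction. RefSeq windows on GRCm38.p6, from 250 bases before to 50 after the annotated start, were found for 8 of the 10 genes (all but Ptgis and Alox5ap). They are written 5′ to 3′ on the gene's strand, with capitals for matches to the motifs searched: the cyclic AMP response half-site CGTCA, the E-box CACGTG, the AP-1 site TGANTCA, the GC box GGGCGG and the NF-κB site on both strands, and the TATA box TATAAA on the gene's strand. The Ptgs2 window is chr1:150099781-150100080 on the + strand, that of Ptger4 chr15:5244138-5244437 on the - strand, and that of Alox5 chr6:116461129-116461428 on the - strand.
Ptgs2: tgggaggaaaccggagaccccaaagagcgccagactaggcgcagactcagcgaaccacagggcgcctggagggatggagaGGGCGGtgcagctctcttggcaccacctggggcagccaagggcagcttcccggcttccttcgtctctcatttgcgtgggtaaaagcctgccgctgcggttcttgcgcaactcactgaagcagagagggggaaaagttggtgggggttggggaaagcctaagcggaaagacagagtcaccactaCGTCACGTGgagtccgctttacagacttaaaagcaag
Ptger4: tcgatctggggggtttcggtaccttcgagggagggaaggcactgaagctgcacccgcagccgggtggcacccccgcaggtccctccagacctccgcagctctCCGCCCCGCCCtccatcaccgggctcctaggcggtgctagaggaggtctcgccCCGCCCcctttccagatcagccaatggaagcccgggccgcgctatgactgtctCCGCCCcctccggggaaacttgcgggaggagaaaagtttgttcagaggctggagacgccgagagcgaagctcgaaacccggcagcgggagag
Alox5: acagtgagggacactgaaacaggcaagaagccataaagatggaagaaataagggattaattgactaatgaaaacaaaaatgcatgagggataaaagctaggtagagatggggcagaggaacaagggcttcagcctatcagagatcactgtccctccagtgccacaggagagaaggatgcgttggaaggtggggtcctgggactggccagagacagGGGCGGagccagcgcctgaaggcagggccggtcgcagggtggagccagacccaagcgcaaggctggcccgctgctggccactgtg
In Ptgs2 the CGTCA half-site at positions 14 to 18 after the annotated start and the E-box at 17 to 22 overlapped by 2 bases, and 1 GC box lay upstream. These positions hold only for the annotated start, whose place was not checked, and sequence outside the windows was not searched. Ptger4 had 4 GC boxes, a pair of which overlapped, and Alox5 had 1, with no other motif in either window. Among 32851 promoter windows of the same length, 20.8% held the half-site, 7.15% the E-box and 35.7% a GC box, while the TATA box (8.32%), AP-1 (7.81%) and NF-κB (4.51%) motifs were in none of these 3 windows. The motif shared by all 3 was thus the GC box, which is common, and the match describes letters and not binding. These motifs were not particular to the genes that fell. Ptges held 2 GC boxes, Ptges3 held 4 and a half-site, and Ptges2 held an E-box, while the Pla2g4a and Ptgs1 windows held none of the motifs.

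Beyond the 10 genes, a list of 83 other genes of eicosanoid release, synthesis, reception, breakdown and related oxidation was examined, of which 68 were listed and 36 tested. Of these 36, 3 rose, 5 fell and 28 did not pass, 22.2% past the threshold beside 19.6% of all tested genes, and their median log2 fold change was -0.13. Enzymes of arachidonate release and reuptake gave 1 of 11 past the threshold: Dagla, a diacylglycerol lipase, went from 6.85 ± 0.534 to 4.87 ± 0.409 FPKM (log2 fold change -0.42 ± 0.09, limma, adjusted p = 0.0179). Its call was lost without PBS 1 (adjusted p = 0.0822), PBS 3 (0.0927) or L-proline 2 (0.0528) and with quantile normalization (0.0676), within a range of 0.000959 to 0.0927. Lpcat3, which puts arachidonate back into phospholipid, was 35.3 ± 1.12 and 29.0 ± 3.07 FPKM (adjusted p = 0.0594). Pla2g7, a secreted phospholipase gene just under the filter at a mean of 0.954 FPKM and so untested, had 136, 149 and 171 fragments in PBS 1, 2 and 3 and 64, 90 and 78 in L-proline 1, 2 and 3, without overlap.

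Other genes of the leukotriene branch gave 2 of 6 past the threshold, both lower, beside 12.1% lower among all tested genes. Mgst3, a microsomal glutathione transferase able to make leukotriene C4, went from 49.3 ± 2.71 to 33.7 ± 1.89 FPKM (log2 fold change -0.54 ± 0.08, limma, adjusted p = 0.00295). The exporter gene Abcc1, whose protein carries leukotriene C4 out of cells, went from 42.1 ± 3.85 to 31.2 ± 0.559 (-0.42 ± 0.08, adjusted p = 0.00998). Both passed in all 18 alternatives, with an adjusted p of at most 0.0201 for Mgst3 and 0.0433 for Abcc1. Lta4h, the hydrolase for leukotriene B4, was 71.8 ± 1.29 and 62.8 ± 3.96 FPKM (adjusted p = 0.0895), and Ltc4s, leukotriene C4 synthase, 1.11 ± 0.432 and 1.71 ± 0.436 (adjusted p = 0.172). No other lipoxygenase gene was tested: Alox12, Alox12b, Alox15, Alox8 and Aloxe3 had means of at most 0.111 FPKM. The leukotriene receptor genes Ltb4r1, Ltb4r2 and Cysltr2 had means of at most 0.0836 FPKM.

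Of the 6 tested genes of prostaglandin breakdown and transport, 1 rose, 1 fell and 4 did not pass, with a median log2 fold change of -0.02. Ptgr2, a reductase of 15-keto-prostaglandins, went from 12.5 ± 0.657 to 16.6 ± 0.840 FPKM (log2 fold change 0.38 ± 0.08, limma, adjusted p = 0.0126), and Ptgr3, of the same family, from 23.7 ± 2.14 to 17.6 ± 1.90 (-0.41 ± 0.10, adjusted p = 0.0295). The call of Ptgr2 was lost without PBS 1 (adjusted p = 0.0647) or PBS 3 (0.0505), and ran from 0.00114 to 0.0647. With a GC content of 43.8% its log2 fold change after GC correction was 0.49 ± 0.09. That of Ptgr3 was lost without PBS 1 (0.116), PBS 3 (0.124) or L-proline 2 (0.0761) and with median-of-ratios scaling (0.0518), and ran from 0.000648 to 0.124 over 16 alternatives, GC correction not among them because no transcript was matched to it. Hpgd, the dehydrogenase that inactivates prostaglandins, was under the filter with 20, 29 and 18 fragments in PBS 1, 2 and 3 and 37, 42 and 34 in L-proline 1, 2 and 3. On the list of other prostanoid synthases, 1 of 5 tested genes passed. It was Akr1b8, an aldo-keto reductase whose part in prostanoid synthesis was not examined here. Akr1b8 went from 76.6 ± 2.28 to 64.0 ± 1.16 FPKM (-0.26 ± 0.06, limma, adjusted p = 0.0241). Its call was lost without PBS 1 (0.105), PBS 2 (0.0816), PBS 3 (0.0822) or L-proline 2 (0.0585) and with median-of-ratios scaling (0.0741). Over 18 alternatives its adjusted p ran from 0.00732 to 0.105.

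Of the 6 tested genes of the epoxide branch, 1 rose. Ephx1, microsomal epoxide hydrolase, was 211, 226 and 199.8 FPKM in PBS 1, 2 and 3, and 347, 360 and 408 in L-proline 1, 2 and 3. The groups were far apart, and Ephx1 rose by 0.80 ± 0.08 on the log2 scale (adjusted p = 0.000797 by limma). It had the largest change of the 36 genes and passed in all 18 alternatives (adjusted p of 2.48e-05 to 0.00653). The soluble epoxide hydrolase gene Ephx2, better known for acting on arachidonate epoxides, had a mean of 0.162 FPKM and was not tested.

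**Figure D5:**
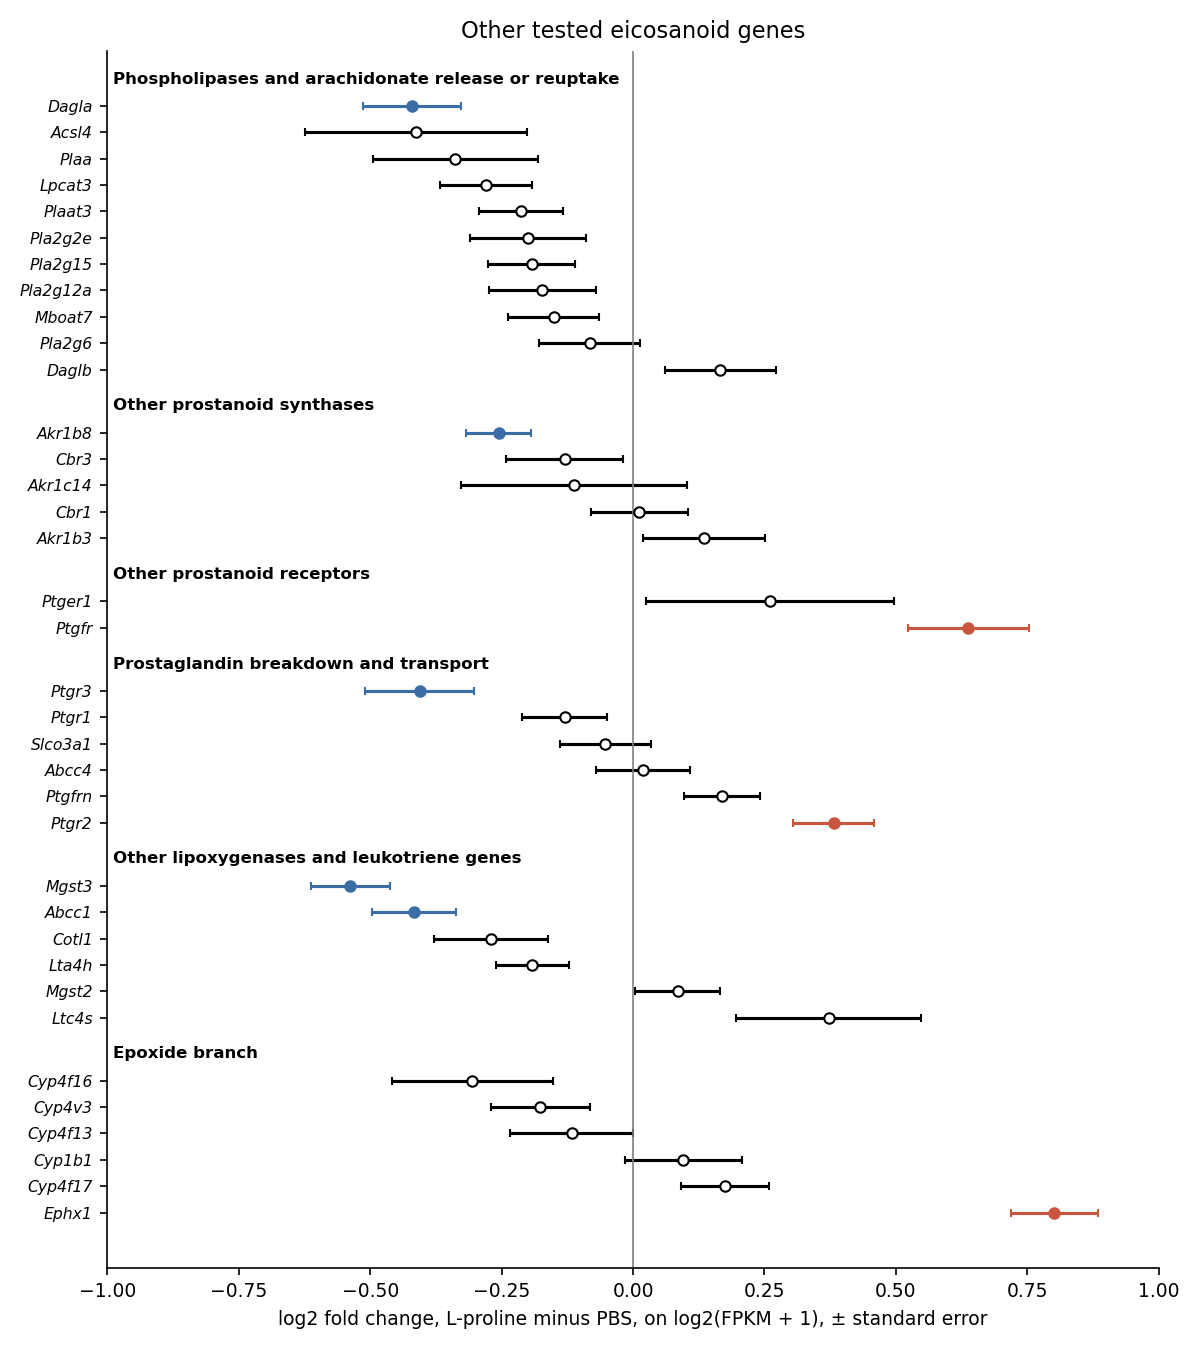
Log2 fold change (L-proline minus PBS, on log2(FPKM + 1)) ± standard error for the 36 other tested eicosanoid genes, grouped by step; red and blue filled points rose or fell with an adjusted p under 0.05 and open points did not pass. Ephx1, Ptgfr and Ptgr2 rose, and Mgst3, Abcc1, Dagla, Ptgr3 and Akr1b8 fell.

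Known regulators of Ptgs2 transcription and mRNA decay gave 1 of 20 higher and 3 lower, with a median log2 fold change of -0.05, a share near the 19.6% of all tested genes past the threshold. Egr1, an immediate early transcription factor gene, was 19.5, 16.9 and 18.8 FPKM in PBS 1, 2 and 3, and 11.3, 10.2 and 9.21 in L-proline 1, 2 and 3, or -0.79 ± 0.10 as a log2 fold change (adjusted p = 0.00157 by limma), which passed in all 18 alternatives. Cebpd fell by 0.36 ± 0.08 on the log2 scale (adjusted p = 0.0202; 0.00270 to 0.0865 over alternatives, lost without PBS 1 at 0.0564, PBS 2 at 0.0641 or PBS 3 at 0.0865). Khsrp, which promotes decay of AU-rich mRNAs, fell by 0.31 ± 0.07 (adjusted p = 0.0232; 0.00537 to 0.0964, lost without PBS 1 at 0.0782, PBS 2 at 0.0729 or PBS 3 at 0.0964 and with median-of-ratios scaling at 0.0505). Jun rose by 0.34 ± 0.08 (adjusted p = 0.0213; 0.000831 to 0.106, lost without PBS 1 at 0.0844, PBS 3 at 0.106 or L-proline 2 at 0.0601). The decay factor gene Zfp36 was 10.2 ± 0.563 and 10.6 ± 0.865 FPKM, the stabiliser gene Elavl1 13.6 ± 0.385 and 12.7 ± 0.636, and the NF-κB genes Nfkb1 and Rela had log2 fold changes of 0.04 and 0.11; none of these 4 passed.

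Among 13 genes known to respond to cyclic AMP, the messenger of EP4, 10 were tested, 2 fell and 1 rose, beside 12.1% and 7.5% of all tested genes. Nr4a2, a nuclear receptor gene, was 7.30, 5.72 and 7.47 FPKM in PBS 1, 2 and 3, and 2.36, 2.24 and 1.31 in L-proline 1, 2 and 3 (log2 fold change -1.41 ± 0.16, limma, adjusted p = 0.00132). Areg, which encodes the growth factor amphiregulin, was 18.8, 19.8 and 15.9 FPKM in PBS and 8.16, 5.86 and 8.55 in L-proline (-1.18 ± 0.14, adjusted p = 0.00156). Both were lower in every L-proline library than in any PBS library. Fosl2 rose by 0.44 ± 0.08 (adjusted p = 0.00848). The other 7, Crem, Pde4b, Pde4d, Per1, Sik1, Dusp1 and Nr4a1, did not pass, and the median of the list was -0.18, so this group did not move as one.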

How the data were processed

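The authors deposited 1 table of FPKM values for 6 libraries, per the file headers; polyadenylated RNA was read in pairs on a NovaSeq after library preparation from 1.5 µg of RNA with a kit not described as strand-specific, per the labels' protocols. HISAT2, HTSeq 0.13.5 and GRCm39 appear in the submitters' processing notes with no role given, and no source used here states by which criterion genes entered the table. Groups and replicate numbers came from sample titles. FPKM depends on gene length and on each library's abundant genes.

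Library totals were solved from 13 mitochondrially encoded genes and gene lengths from the values, which gave whole fragments (tolerance 0.01) for 14407 of 14408 genes; 1 fragment on 1 kb was worth 0.0267 to 0.0286 FPKM. For genes averaging 1 FPKM or more, limma 3.58.1 (R 4.3.3) was run on log2(FPKM + 1) values (empirical Bayes with trend, two-sided, Benjamini-Hochberg, threshold 0.05); fold changes on this scale understate those of low genes. Ratios used exact permutation tests. GC content came from the longest GENCODE M21 transcript, for 97.5% of tested genes; a lowess curve (span 0.3) of each library's deviations was subtracted. On simulated data limma recovered 46% of 50 genes changed 1.25-fold and 100% at 1.5-fold, among 10501 genes tested. Of its calls 7.49% were false, above the 5% aimed at. The simulation drew genes independently with 1 shared dispersion (0.00635) and no effect of GC content. These shares therefore do not carry over to genes with a wider spread, such as Ptgs2 and Pla2g4a. Alternatives covered pseudocount, filter, scaling, weights, voom on recovered fragments, variance model, replicate block and each library left out. They also included GC correction without and with the replicate block, both chosen after seeing the data. The version with the block gave the smallest adjusted p of Ptgs2, Alox5 and Ptges3.

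Members, lists and tests were chosen with earlier results of these data known. Named genes are the 10 members, every list gene past the threshold (otherwise up to 3 per list with the smallest p), marker genes for their level, and the 5 genes most like Ptgs2 outside predicted models and pseudogenes. Lpcat3, Lta4h, Ltc4s, Ptger1, Ptgir, Ptger2, Ptger3, Hpgd, Pla2g7, Fcgr3, Tbxas1, Ephx2, the untested lipoxygenase and receptor genes, and the regulators and cyclic AMP genes that did not pass were named after their values were seen.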

Additional observations from a re-analysis of the deposited data

How the results depend on the processing

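With array quality weights 4671 genes passed, 6 of them members and 18 other eicosanoid genes, against 2056, 3 and 8. GC correction, chosen after seeing the data, gave 3131 genes and 6 members, and GC correction with the replicate number as a block gave 4118 genes and 6 members. Leaving out 1 library gave 870 to 2762 genes, 1 to 5 members and 4 to 10 other eicosanoid genes. Without PBS 1 there were 968 genes, 1 member and 4 others, and without PBS 3 there were 870, 1 and 4. The replicate block alone gave 2383 genes, 4 members (Pla2g4a joined, adjusted p = 0.0364) and 8 others. Same-numbered libraries deviated from their group means with r = 0.65, 0.42 and -0.35 for numbers 1, 2 and 3, so the numbers were not taken to pair the samples. No pathway gene past the threshold changed direction in any alternative run; the log2 ratio of Ptges to Ptgis, 0.09, became -0.06 without L-proline 1, and that of Ptgs2 to Ptgs1 ran from -1.05 to -0.54. The cause of these shifts was not tested. Depth limits Ptges, Ptgir and other genes under 1 FPKM, and 3 libraries a group limit every test.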
